A study of Mus musculus with 30 samples.

Results

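The comparison described here set forelimb buds of mouse embryos exposed to C59 against forelimb buds of embryos exposed to the DMSO solvent, isolated 12 h after the pregnant female had received 1 intraperitoneal injection at gestational stage E10.5. Its members were the 6 libraries of the count table labelled with that time, 3 for C59 and 3 for DMSO, of 30 libraries in the series, which also holds both treatments at 1 h, 6 h, 18 h and 24 h. All embryos were wild type on the Swiss Albino background, and no group carried a transgene or a deletion. C59 is Wnt-C59, a small-molecule inhibitor of porcupine. It was given to the mother, so exposure was not confined to the limb bud, and the stated vehicle of the C59 injection held methylcellulose and Tween-20, which the DMSO control solution did not. Whole forelimb buds were taken, with mesenchyme, ectoderm, vessels, blood and migrating muscle and nerve cells. Each replicate was stated to be the RNA of 1 pair of buds, and replicates came from different embryos of either sex. The polyadenylated RNA was sequenced to between 18252021 and 23932093 counts a library at 12 h. Expression of a gene in a library is given as CPM (counts scaled to the TMM-adjusted size of the library), and the test was edgeR's quasi-likelihood test with Benjamini-Hochberg adjustment over 13324 protein-coding autosomal genes.

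WNT ligands are secreted proteins that must be acylated by porcupine in the endoplasmic reticulum before they can leave the cell and bind Frizzled and LRP receptors. In the canonical branch, receptor binding spares β-catenin from degradation, and β-catenin with TCF/LEF factors then activates target genes, several of which encode inhibitors of the same pathway. In the limb bud, WNTs from the ectoderm act with FGFs from the apical ectodermal ridge to keep the distal mesenchyme proliferating and undifferentiated, while SHH from the posterior mesenchyme and BMP antagonism by GREM1 sustain the ridge. Cells that leave this environment condense and turn on *Sox9*, the master regulator of cartilage.

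At 12 h, *Shh*, *Fgf8*, the WNT and FGF-ERK target lists and genes of DNA replication, ribosome biogenesis and sterol synthesis were lower in C59-treated forelimb buds, and genes of cartilage, TGF-β signaling and differentiating muscle were higher. Of the 13324 genes tested, 6330 (47.5%) had an adjusted p below 0.05, of which 2934 (22%) rose and 3396 (25.5%) fell, and below the words rose and fell refer to this rule. With the added requirement of a change over 2-fold, 660 genes were called (4.95%), 470 of them higher (3.53%) and 190 lower (1.43%). In 7610 genes (57.1%) the 3 C59 values did not overlap the 3 DMSO values. The counts of each list below are to be read against these shares, and a list near them is given as no result of its own. The lists were chosen with earlier results of these data known, so an excess over these shares is a description. The median log2 fold change over all tested genes was 0.02. With upper-quartile in place of TMM factors this median was 0.10, and the genes past the test split into 4088 that rose and 2575 that fell. Small shifts therefore have a direction that depends on the scaling.

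The number of genes called by fold rested mainly on weakly expressed genes. The median expression over the 6 libraries was 2.73 CPM for genes called higher and 9.42 CPM for genes called lower, against 31.2 CPM for all tested genes. Among the 803 genes under 1 CPM, 112 were called higher and 27 lower. Among the 2636 genes over 100 CPM, 11 were called higher and 18 lower, although 427 of these rose and 1275 fell.

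**Figure D1:**
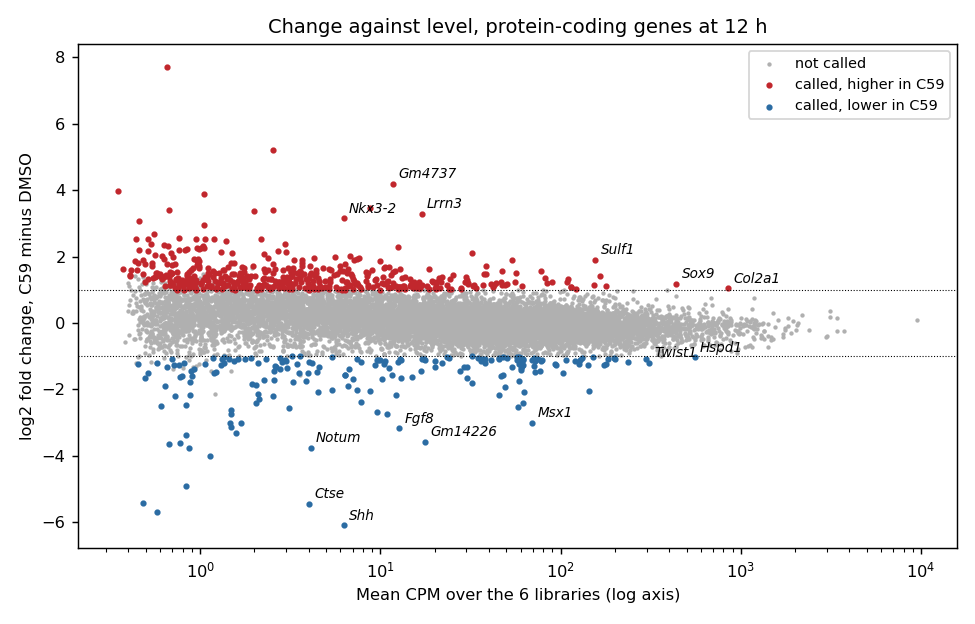
Log2 fold change of C59 over DMSO at 12 h (vertical axis) against mean CPM over the 6 libraries (horizontal log axis), 1 point for each of the 13324 genes, red for the 470 called higher, blue for the 190 called lower. The changes of highest fold lie at low expression, such as *Shh* and *Ctse*, and *Sulf1*, *Sox9*, *Twist1*, *Col2a1* and *Hspd1* are among the 29 called genes over 100 CPM.

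The libraries differed in ways the treatment does not account for. Summed FPKM (fragments by transcript length and library size, the authors' values) of *Ddx3y*, *Kdm5d*, *Eif2s3y* and *Uty*, which lie on the Y chromosome, was 38.6 in DMSO replicate 2 and 18.8 in C59 replicate 1, and at most 0.417 in the other 4 libraries. C59 replicate 1 also had *Xist*, the transcript of the inactive X chromosome, at 48.8 FPKM, so that this library held signals of both sexes, whereas *Xist* was at 0.0479 FPKM in DMSO replicate 2. DMSO replicate 2 further held markers of liver and gut at a summed 53.5 CPM against at most 1.07 CPM elsewhere, and the highest DMSO values of most muscle genes. Without these 2 libraries 777 genes were called, and without DMSO replicate 2 alone 811. Whole limb buds were measured, so that for any gene below fewer cells of a type and less RNA per cell cannot be told apart.

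*Porcn*, the X-linked gene of the enzyme that C59 inhibits, is not among the autosomal genes of the count table. Its FPKM was 2.31, 3.28 and 2.56 in DMSO replicates 1 to 3 and 3.69, 4.25 and 3.47 in C59 replicates 1 to 3. The C59 values were all above the DMSO values, with means of 3.80 ± 0.398 and 2.72 ± 0.508 FPKM (SD, n = 3 each), and an exact two-sided permutation test of 3 against 3 libraries cannot give a p below 0.1. C59 acts on the protein, so its transcript is no check of the treatment.

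Feedback and target genes of canonical WNT signaling were lower. Of 20 tested members of this list, 18 fell and 0 rose, against 25.5% and 22% of all genes, with a median log2 fold change of -1.21, and 12 were called lower. *Axin2*, which encodes a scaffold of the β-catenin destruction complex, was at 113, 111 and 112 CPM in the DMSO libraries and 39.3, 39.2 and 44.1 CPM in the C59 libraries. The groups lay far apart with little spread inside either, and the log2 fold change was -1.45 ± 0.06 (SE, edgeR adjusted p = 1.4e-07). *Notum*, whose product removes the acyl group from secreted WNTs, went from 6.71, 8.33 and 7.83 to 0.826, 0.298 and 0.603 CPM. All 3 C59 libraries were under 1 CPM, far below every DMSO library, a log2 fold change of -3.75 ± 0.28 (SE, edgeR adjusted p = 3.12e-06). *Nkd2* and *Nkd1*, inhibitors of Dishevelled, fell by 2.52 and 1.09 on the log2 scale, and *Apcdd1*, a membrane inhibitor of WNT signaling, fell by 2.42. *Dkk1*, the secreted LRP antagonist, went from 12.7, 12.4 and 14 to 1.65, 2.77 and 3.01 CPM without overlap, and fell by 2.37. The transcriptional effectors *Tcf7* and *Lef1* fell by 1.80 and 0.98, and the target genes *T* (brachyury) and *Sp5* by 3.02 and 2.18. The 2 members that did not pass the test were *Kremen1* (log2 fold change -0.10, edgeR adjusted p = 0.184) and *Rnf43*, which encodes a ubiquitin ligase for Frizzled receptors (0.46, edgeR adjusted p = 0.0601).

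Of 17 tested genes of WNT ligands and their secretion, 7 rose and 1 fell, with a median log2 fold change of 0.29. The 1 that fell was *Wnt5b*, by 0.25, which did not pass the test in 8 of 17 alternatives, the fits without DMSO replicate 1, DMSO replicate 3, C59 replicate 1 or C59 replicate 3 among them (edgeR adjusted p up to 0.139). The count that fell was 0 without DMSO replicate 1 or DMSO replicate 3 and 2 without C59 replicate 1. The ectodermal ligands *Wnt9b*, *Wnt7b* and *Wnt4* rose by 0.98, 0.89 and 0.78 on the log2 scale. *Wnt9b* was at 11.8, 10.46 and 13.1 CPM in DMSO and 18.3, 23.1 and 28.2 CPM in C59 libraries, without overlap. *Wnt2b*, at 3.69, 3.47 and 3.28 and 3.03, 2.47 and 1.58 CPM, was the member with the lowest value and did not pass the test, at -0.57 (edgeR adjusted p = 0.0818). Among 19 receptor and R-spondin genes, 9 rose and 5 fell (3 with upper-quartile factors). R-spondins raise the number of Frizzled receptors at the cell surface, and the members differed in direction. *Rspo1* went from 19.8, 29.1 and 11.4 to 3.53, 4.31 and 5.43 CPM (-2.18) and *Rspo4* fell by 1.65. *Rspo3* rose by 1.17 from 18.9, 19.2 and 18.6 to 39.2, 43.1 and 45.1 CPM. Of the Frizzled receptors, *Fzd5* rose by 1.51 and *Fzd8* by 0.94, whereas *Fzd10*, itself a member of the target list, fell by 2.08. Of 7 secreted inhibitors 3 rose and 2 fell. *Sfrp2*, which encodes a Frizzled-related WNT-binding protein, rose by 1.158 from 96.6, 101 and 86.8 to 253, 202 and 181 CPM, and *Dkk2* fell by 1.10.

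**Figure D2:**
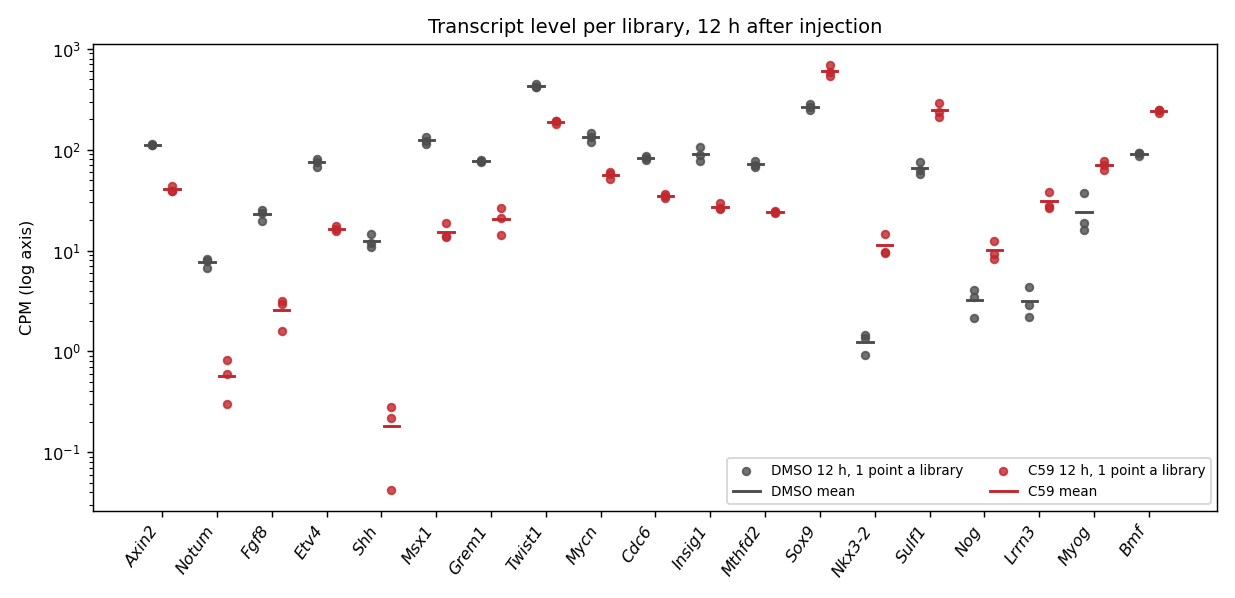
CPM on a log axis of 19 genes in the 6 libraries at 12 h, 1 point a library and a bar at the group mean, DMSO in grey and C59 in red. In each gene shown the 3 C59 libraries lie on 1 side of the 3 DMSO libraries, lower from *Axin2* to *Mthfd2* and higher from *Sox9* to *Bmf*, with *Shh* at under 0.3 CPM in every C59 library.

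*Shh*, the signal of the posterior limb bud mesenchyme (chr5:28456815-28467256, minus strand, mm10), was the protein-coding gene that fell most. It was at 11.8, 10.7 and 14.4 CPM in the DMSO libraries and 0.22, 0.0426 and 0.278 CPM in the C59 libraries. The highest C59 value was far below the lowest DMSO value, a log2 fold change of -6.09 ± 0.32 (SE, edgeR adjusted p = 5.54e-07) or 68.1-fold. The change was also tested against 6 h, when the effect was -1.47, and the difference of the 12 h from the 6 h effect was -4.62 ± 0.34 (SE, edgeR adjusted p = 5e-07). Other genes of the hedgehog pathway did not share this size. Of 16 tested, 3 rose and 5 fell (3 without DMSO replicate 3), near the shares of all genes, with a median of -0.09. *Gli1* and *Ptch1*, which are transcribed in response to hedgehog signal, had log2 fold changes of -0.09 and 0.05 (edgeR adjusted p = 0.552 and 0.581). *Scube1*, whose family aids hedgehog release, fell by 0.80, while its relative *Scube2* rose by 1.65 and *Boc*, a hedgehog co-receptor, by 0.47.

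*Fgf8*, the principal FGF of the apical ridge, went from 23.8, 19.5 and 25.0 to 2.92, 1.58 and 3.15 CPM. The groups were separate in every library, the log2 fold change being -3.17 ± 0.20 (SE, edgeR adjusted p = 1.47e-06). Of 14 FGF ligands and receptors 6 rose and 3 fell, among them *Fgfr3*, a receptor of differentiating chondrocytes, which rose by 0.98 from 16.4, 16.9 and 17.4 to 37.9, 30.5 and 32.2 CPM. The 6 that rose became 3 without DMSO replicate 2 or without DMSO replicate 3. Genes that FGF signaling induces through ERK were lower as a list: 13 of 16 fell and 0 rose, with a median of -0.57 and 5 called lower. *Etv4*, a transcription factor of this pathway, was at 76.1, 67.5 and 80.9 CPM in DMSO and 15.7, 17.3 and 16.3 CPM in C59 libraries. The values did not overlap, and the log2 fold change was -2.18 ± 0.08 (SE, edgeR adjusted p = 1.17e-07). *Spry4*, *Etv5*, *Dusp6* and *Dusp4* fell by 1.64, 1.49, 1.27 and 1.07. At 6 h the median of this list was -0.06, and in the test between the times 12 of its 16 members were lower at 12 h than at 6 h and 0 higher, against 11.5% and 6.59% of all genes.

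Factors of the ridge and limb ectoderm moved less. Of 16 tested, 5 fell and 2 rose (1 without DMSO replicate 1 or DMSO replicate 2). *Tfap2c*, an AP-2 transcription factor, went from 18.4, 13 and 20.4 to 6.78, 3.96 and 7.0 CPM and fell by 1.56, and *Edar* fell by 1.18. *Sp8*, required for the ridge, fell by 0.70, whereas *Trp63*, the epithelial p53 relative, rose by 0.47. Markers of surface ectoderm did not fall with *Fgf8*: 7 of 12 rose and 0 fell, and their summed expression was 340, 368 and 367 CPM in DMSO libraries and 445, 475 and 609 CPM in C59 libraries.

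BMP genes divided by member, and as lists they were near the shares of all genes. Of 21 ligands and antagonists, 7 rose and 5 fell. *Grem1*, the BMP antagonist that links SHH to the ridge, went from 75.4, 79.8 and 77.8 to 21.2, 14.4 and 26.2 CPM, a log2 fold change of -1.92 ± 0.16 (SE, edgeR adjusted p = 5.33e-06), and *Bmp4* and *Bmp2* fell by 1.25 and 0.72. *Nog* and *Bmper*, which encode other extracellular BMP modulators, rose, *Bmper* by 1.40. *Nog* was at 3.48, 4.08 and 2.13 CPM in DMSO and 12.6, 9.21 and 8.26 CPM in C59 libraries, which did not overlap, and rose by 1.62. *Gdf5*, the joint and condensation ligand, rose by 1.26, with 4.04, 7.6 and 2.99 CPM in DMSO and 18.3, 10.6 and 6.45 CPM in C59 libraries, and the lowest C59 library was below the highest DMSO library. Its call was lost without DMSO replicate 1, DMSO replicate 3 or C59 replicate 1, with log2 fold changes down to 0.82 and edgeR adjusted p up to 0.0824, and in limma on log2(FPKM + 1), and DESeq2 gave an adjusted p of 0.064. Only 4 of the 21 ligands and antagonists rose without DMSO replicate 1, without DMSO replicate 3 or without C59 replicate 1. Of 17 receptors and response genes 4 rose and 5 fell, and without DMSO replicate 3 only 2 rose. *Bmpr1b*, a type I receptor of condensing mesenchyme, rose by 1.23 from 28.1, 29.5 and 26.2 to 60.0, 64.0 and 72.7 CPM. *Msx1*, a homeobox gene of undifferentiated distal mesenchyme (chr5:37820485-37824583, minus strand, mm10), was at 123, 113 and 135 CPM in DMSO and 13.9, 13.5 and 18.7 CPM in C59 libraries. Each C59 library was several times below each DMSO library, the log2 fold change being -3.01 ± 0.11 (SE, edgeR adjusted p = 1.2e-07). *Id1*, a common readout of BMP signal, fell by 0.50.

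Transcription factors of limb bud mesenchyme and its anterior-posterior axis were mostly lower, 23 of 38 falling and 6 rising, with a median of -0.42. The 6 that rose became 3 without DMSO replicate 1, DMSO replicate 3 or C59 replicate 2. *Twist1* went from 417, 422 and 447 to 193, 178 and 192 CPM (log2 fold change -1.19, SE 0.05, edgeR adjusted p = 1.4e-07). *Hand1*, a basic helix-loop-helix factor, fell most, by 1.51. *Prrx2* and *Lhx2*, homeobox genes of the outgrowing mesenchyme, fell by 1.11 and 1.14, and *Alx4* and *Pax1*, expressed anteriorly, by 0.89 and 0.79. *Irx2* rose most in this list among genes past the test, by 0.91. The HoxA and HoxD genes, which pattern the limb along its length, changed little: 0 of 21 rose and 5 fell (3 without C59 replicate 2 or with upper-quartile factors), with a median of -0.11 and a lowest value of -0.65 for *Hoxa11*. *Hoxd1* had the highest, 0.77 (edgeR adjusted p = 0.272). Among 20 genes of the proximal limb and of retinoic acid, 6 rose and 4 fell. *Crabp1*, which binds retinoic acid, went from 115, 109.9 and 92.3 to 39.2, 40.5 and 35.7 CPM and fell by 1.46, and *Aldh1a2*, which makes it, rose by 1.71 from 14.8, 27.0 and 12.5 to 52.2, 58.0 and 67.2 CPM. *Meis1* and *Meis2*, markers of the proximal limb, had values of -0.11 and 0.19 and did not pass the test (edgeR adjusted p = 0.484 and 0.184).

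Of 19 genes of progenitor state and developmental timing 11 fell and 2 rose. *Mycn*, the MYC family member of limb mesenchyme, went from 134, 119.9 and 146 to 57.1, 50.6 and 60.0 CPM (log2 fold change -1.25, SE 0.08, edgeR adjusted p = 1.5e-06). *Lin28b* and *Trim71*, post-transcriptional regulators of developmental timing, fell by 0.88 and 0.84, and *Hmga2*, a chromatin protein of embryonic progenitors, by 0.73. The 2 that rose were the cell cycle inhibitors *Cdkn1c* (0.82, from 314, 329.8 and 299 to 606, 569.6 and 484 CPM) and *Cdkn1b* (0.57).

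Cartilage genes were higher. Of 16 cartilage transcription factors 11 rose and 0 fell, with a median log2 fold change of 0.69 and 7 called higher. *Sox9* was at 266, 286 and 249.6 CPM in DMSO and 689, 592 and 542 CPM in C59 libraries. All C59 values were above all DMSO values, and the log2 fold change was 1.18 ± 0.08 (SE, edgeR adjusted p = 1.89e-06). Its partners *Sox5* and *Sox6*, with which it drives cartilage matrix genes, rose by 1.20 and 1.56. *Nkx3-2*, a repressor that promotes the chondrocyte fate, went from 1.46, 1.34 and 0.921 to 9.64, 9.46 and 14.7 CPM, a log2 fold change of 3.16 ± 0.25 (SE, edgeR adjusted p = 4.09e-06). *Runx2*, the regulator of hypertrophic cartilage and bone, had 35.1, 35.8 and 29.9 and 52.8, 39.9 and 33.2 CPM and did not pass the test (edgeR adjusted p = 0.0941).

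Of 21 cartilage matrix genes 12 rose and 1 fell, with a median of 1.05 and 9 called higher. The 1 that fell was *Sulf2*, by 0.11, which did not pass the test in 9 of 17 alternatives, upper-quartile factors among them. *Col2a1*, the principal collagen of cartilage, was at 579, 545 and 545 CPM in DMSO and 1433, 1099.8 and 916 CPM in C59 libraries, the 3 C59 values being all higher and more spread. It rose by 1.05, and by 0.84 without C59 replicate 1, below the 2-fold threshold, and *Col9a1*, *Col9a2* and *Col9a3* rose by 0.96, 1.32 and 1.5. *Sulf1*, which encodes a sulfatase that edits heparan sulfate at the cell surface, went from 62.7, 75.5 and 57.8 to 209.8, 237 and 289.5 CPM (log2 fold change 1.91, SE 0.12, edgeR adjusted p = 1.36e-06). *Acan*, which encodes the aggrecan of mature cartilage, was at 0.202, 1.90 and 0.403 CPM in DMSO and 4.63, 0.938 and 0.278 CPM in C59 libraries, which overlapped, and did not pass the test (edgeR adjusted p = 0.314). C59 replicate 1, 1 of the libraries with Y-linked signal, had the highest value of *Acan*, *Matn1*, *Cnmd*, *Col9a3*, *Matn4* and *Col2a1*. *Matn1*, which encodes a cartilage matrilin, rose by 1.81, and by 0.71 with an edgeR adjusted p of 0.181 without both libraries with Y-linked signal. It also missed the test without any 1 of the DMSO libraries, without C59 replicate 1 and in limma on log2(FPKM + 1). Without the 2 libraries with Y-linked signal, 12 of the matrix genes and 11 of the transcription factors rose.

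In TGF-β and activin signaling, which promotes condensation, 11 of 16 genes rose and 0 fell, with a median of 0.39. *Inhba*, the activin A subunit, went from 2.52, 3.41 and 2.36 to 8.43, 9.63 and 9.41 CPM and rose by 1.73, and the target gene *Tgfbi* rose by 0.96. *Ltbp3*, *Ltbp1* and *Ltbp4*, which encode matrix proteins that hold latent TGF-β, rose by 0.89, 0.74 and 0.72. Of 16 tendon, joint and connective tissue factors 9 rose and 2 fell. *Ebf1* and *Ebf3* rose by 1.10 and 0.92, and *Mkx*, a tendon factor, fell by 0.54. Of 29 genes of condensation adhesion and interstitial matrix 15 rose and 4 fell, with *Vcan*, the proteoglycan of precartilage matrix, rising by 0.76 from 514, 551 and 447 to 809, 1059 and 695 CPM. *Col8a1*, a short-chain collagen, rose by 1.62, and *Kera*, the proteoglycan keratocan, fell by 1.84. The count of 15 became 8 without DMSO replicate 1 or without DMSO replicate 3, and 9 without C59 replicate 2.

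Muscle genes split between the migrating progenitor and the differentiating cell. *Pax3* and *Lbx1*, which mark limb muscle progenitors, fell. *Pax3* was at 14.7, 11.3 and 16 CPM in DMSO and 3.53, 3.92 and 2.74 CPM in C59 libraries, without overlap, a log2 fold change of -2.04 ± 0.18 (SE, edgeR adjusted p = 8.28e-06), and *Lbx1* fell by 1.15. *Myf5* and the migration receptor *Met* fell by 1.00 and 0.93. *Myog*, the regulator of terminal differentiation, rose by 1.56, from 18.6, 37.0 and 16.1 to 71.1, 78.0 and 62.4 CPM, as did the fusion genes *Mymk* (1.53) and *Mymx* (1.89). In all, 11 of 20 progenitor and regulatory genes rose and 6 fell. Of 33 sarcomere and neuromuscular junction genes 16 rose and 0 fell, with a median of 1.01. The giant sarcomere protein gene *Ttn* rose most, by 2.28, and *Mybpc1* had -0.33 (edgeR adjusted p = 0.175). *Actc1*, the embryonic actin of muscle, showed the spread behind this list, with 12.1, 45.2 and 11.8 CPM in DMSO and 81.7, 97.1 and 74.6 CPM in C59 libraries. DMSO replicate 2 was the highest control for it, although still below each C59 library, and the log2 fold change was 1.88 ± 0.39 (SE, edgeR adjusted p = 0.0025). The number of sarcomere genes that rose ran from 12 to 26 over the fits without 1 library. It was 26 without DMSO replicate 2, and 25 without both libraries with Y-linked signal.

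Genes of DNA replication and the S phase were lower. All 43 tested members fell, against 25.5% of all genes, with a median of -0.63, and 5 were called lower. *Cdc6*, which loads the replicative helicase, went from 83.6, 78.7 and 85.9 to 34.8, 33.4 and 36.5 CPM. The spread inside each group was small beside the gap between them, the log2 fold change being -1.24 ± 0.06 (SE, edgeR adjusted p = 3.72e-07). *Mcm10*, *Ccne1*, *Rrm2* and *Exo1* fell by 1.10, 1.09, 1.08 and 1.05, and the smallest change was that of *Gins4* (log2 fold change -0.22, SE 0.08, edgeR adjusted p = 0.0492), which missed the threshold in 10 of 17 alternatives, so that at least 42 of the 43 fell in each. Mitosis genes fell less: 31 of 39 fell and 0 rose (3 without C59 replicate 1), with a median of -0.34 and 0 called. *Ccna2* and *Bub1* fell by 0.66 and 0.62. *Mki67*, *Cenpe* and *Nusap1* did not pass the test, with -0.04, 0.07 and 0.14. The lists also differed in time. From 6 to 12 h, 41 of the 43 S-phase genes and 30 of the 39 mitosis genes became lower in the test between the times. From 12 to 18 h, 14 S-phase genes moved up and 0 down, whereas 20 mitosis genes moved down and 0 up, and the median of all 39 was -0.87 at 18 h.

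Ribosome biogenesis genes, which encode the factors that process ribosomal RNA, all fell, 36 of 36 tested, with a median of -0.71. *Gnl3*, *Ddx21* and *Rrp12* fell by more than 2-fold. *Gnl3* was under 2-fold in both limma fits, *Ddx21* also with upper-quartile factors, and *Rrp12* in these fits and without C59 replicate 1. *Gnl3*, a nucleolar GTPase also called nucleostemin, was at 93.6, 91.6 and 100.04 CPM in DMSO and 41.1, 43.9 and 45.9 CPM in C59 libraries (log2 fold change -1.12, SE 0.06, edgeR adjusted p = 5.63e-07), *Ncl*, the abundant nucleolin, fell by 0.74 and *Nob1*, which matures the small subunit, least, by 0.27. The list was already at a median of -0.46 at 6 h, 23 members became lower between 6 and 12 h, and from 12 to 18 h 26 moved up, against 4.94% of all genes, to a median of -0.07.

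Sterol and fatty acid synthesis fell with it. Of 30 tested genes 27 fell, 9 of them called, and 1 rose, with a median of -0.70. *Insig1*, the sterol sensor that restrains SREBP, went from 78.0, 106 and 88.5 to 25.7, 26.6 and 29.5 CPM. DMSO replicate 2 had the highest value, the groups did not overlap, and the log2 fold change was -1.73 ± 0.11 (SE, edgeR adjusted p = 1.2e-06). The pathway enzymes *Idi1*, *Msmo1* and *Fdps* fell by 1.44, 1.31 and 1.23. *Acss2*, which makes acetyl-CoA from acetate, was the member that rose, by 0.52. In the test between the times 26 of the 30 were lower at 12 h than at 6 h.

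Among 25 genes of serine and one-carbon metabolism and the ATF4 response 14 fell and 5 rose. The enzymes *Mthfd2*, *Shmt1* and *Psat1* fell by 1.57, 1.29 and 1.24, and the amino acid transporters *Slc7a11* and *Slc7a5* by 1.63 and 1.10. *Mthfd2*, a mitochondrial folate enzyme, was at 71.1, 67.0 and 77.5 CPM in DMSO and 24.8, 24.1 and 23.8 CPM in C59 libraries, without overlap. The stress-response genes *Ddit4* and *Trib3* rose by 0.97 and 1.45. The 5 that rose became 2 without DMSO replicate 3 and 3 without DMSO replicate 1, C59 replicate 1 or C59 replicate 3. Glycolysis and hypoxia genes showed no shared direction, 9 of 29 falling and 5 rising (2 or 3 without any 1 library), and *Hk2*, the hexokinase, fell by 1.00, while *Egln3*, an oxygen-sensing prolyl hydroxylase, rose by 0.53 but not past the test without DMSO replicate 2, DMSO replicate 3, C59 replicate 1 or C59 replicate 2 (edgeR adjusted p up to 0.105). Of 20 immediate early and heat shock genes 9 fell and 3 rose (1 without DMSO replicate 1 or C59 replicate 3). *Hspd1*, the mitochondrial chaperonin, had the highest DMSO level in FPKM of the genes called lower, with means of 236 FPKM in DMSO and 124 FPKM in C59, and went from 733, 706 and 794 to 358, 348 and 386 CPM (log2 fold change -1.03, SE 0.05, edgeR adjusted p = 5.54e-07). Its fall was under 2-fold without DMSO replicate 3 or C59 replicate 2, with upper-quartile factors and in both limma fits. *Jun*, an immediate early gene, rose by 1.02, and by under 2-fold without DMSO replicate 3 or C59 replicate 1.

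**Figure D3:**
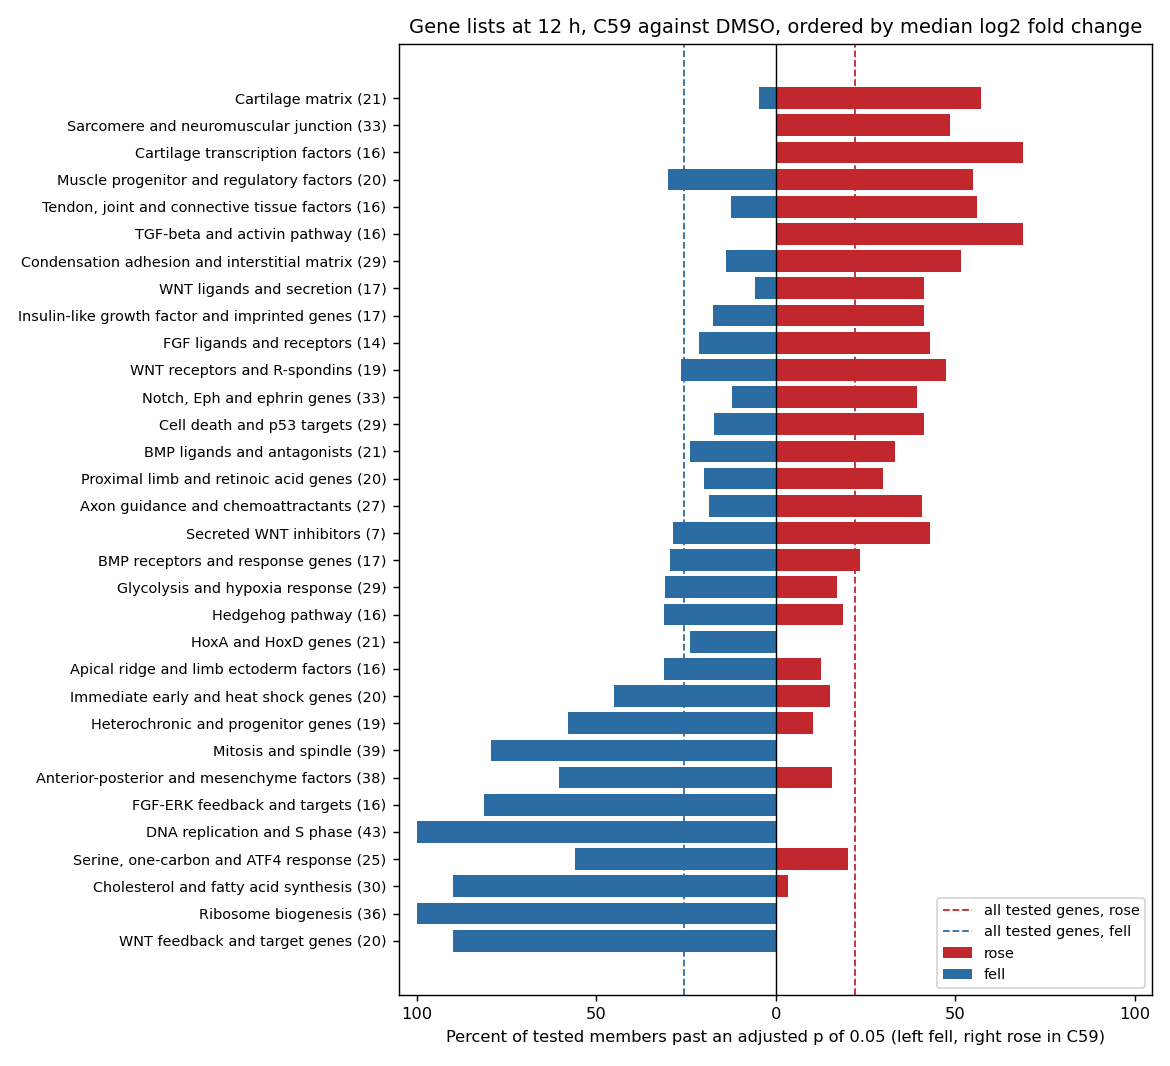
Share of tested members that rose (red, right) or fell (blue, left) at 12 h in each of 32 gene lists, with the number tested in brackets and lists ordered by median log2 fold change. Dashed lines mark the shares over all tested genes, 22% rising and 25.5% falling, and the bars of replication and ribosome biogenesis reach 100% to the left.

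Promoters of the lists in which most members fell were searched for motifs known from such genes. Windows of 300 bases, from 250 before to 50 after the start of each gene, were taken from RefSeq on GRCm38.p6 (the assembly also called mm10), and 10359 of the tested genes had one. The motifs were counted on both strands, and none of them contains another. The E2F letters TTCCCGC or TTGGCGC were present in 20 of 34 S-phase windows (58.8%), against 12.3% of the 10359. The CHR letters TTTGAA were present in 22 of 33 mitosis windows (66.7% against 11.5%). The E-box CACGTG, which MYC proteins can bind, was present in 8 of 31 ribosome biogenesis windows (25.8% against 9.95%). The TCF/LEF letters CTTTGAT were found in 1 of 13 windows of the WNT target list (7.69% against 2.31%), that of *Sp5*. CCAAT was present in 17 of 20 windows of sterol and fatty acid synthesis (85% against 38.2%), and also in 67.6% of S-phase, 69.7% of mitosis and 68.2% of serine and ATF4 windows, and the sterol element TCACNCCAC in 1 of 20 (5% against 1.06%).

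For the TCF/LEF, E2F, CHR and E-box letters, the window shown is that of the list member considered with the largest fall that held a match. The choice did not consider every chromosome, so a member with a larger fall and a match may have been left out. Matched letters are in capitals and the rest in lower case, 5′ to 3′ on the strand of the gene. *Sp5* fell by 2.18, *Cdc6* by 1.24, *Cdk1*, the mitotic kinase, by 0.56 and *Nop2*, a methyltransferase of ribosomal RNA, by 0.88. Their windows are chr2:70474673-70474972 (plus strand), chr11:98907901-98908200 (plus strand), chr10:69352863-69353162 (minus strand) and chr6:125131633-125131932 (plus strand), on GRCm38.p6. The match in *Cdc6* is on the opposite strand, so the capitals there are the reverse complement of the first E2F motif.
Sp5: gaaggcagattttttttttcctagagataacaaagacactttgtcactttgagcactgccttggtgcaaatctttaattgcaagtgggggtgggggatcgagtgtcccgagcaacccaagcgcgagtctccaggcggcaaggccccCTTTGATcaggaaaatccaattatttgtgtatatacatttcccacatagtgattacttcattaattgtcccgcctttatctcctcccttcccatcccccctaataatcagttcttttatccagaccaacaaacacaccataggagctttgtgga
Cdc6: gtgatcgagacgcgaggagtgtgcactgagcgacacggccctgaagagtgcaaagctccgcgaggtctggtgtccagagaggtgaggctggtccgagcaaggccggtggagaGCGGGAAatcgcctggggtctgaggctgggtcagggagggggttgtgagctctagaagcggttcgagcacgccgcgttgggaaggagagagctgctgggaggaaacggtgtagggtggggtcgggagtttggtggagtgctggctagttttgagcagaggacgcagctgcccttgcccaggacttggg
Cdk1: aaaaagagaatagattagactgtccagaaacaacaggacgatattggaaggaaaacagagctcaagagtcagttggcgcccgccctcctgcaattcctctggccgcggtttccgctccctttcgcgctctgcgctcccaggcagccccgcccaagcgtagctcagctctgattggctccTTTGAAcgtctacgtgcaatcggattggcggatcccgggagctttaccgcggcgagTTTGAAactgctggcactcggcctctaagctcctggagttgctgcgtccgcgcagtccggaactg
Nop2: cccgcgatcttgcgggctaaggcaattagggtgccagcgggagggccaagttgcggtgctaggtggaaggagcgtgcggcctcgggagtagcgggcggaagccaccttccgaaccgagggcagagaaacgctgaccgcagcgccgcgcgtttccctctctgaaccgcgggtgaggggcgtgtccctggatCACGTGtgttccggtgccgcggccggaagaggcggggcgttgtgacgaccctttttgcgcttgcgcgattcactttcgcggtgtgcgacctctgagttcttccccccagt

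Over all tested genes with a window, 36.1% of the 1277 with an E2F match fell, against 24.7% of those without. For CHR the shares were 31.5% of 1192 and 25.4%, for the E-box 33.7% of 1031 and 25.3%, and for TCF/LEF 28% of 239 and 26.1%. They were 29.3% of 3957 and 24.1% for CCAAT, and for the sterol element the order was the opposite, 17.3% of 110 and 26.2%. Inside the S-phase list the match made no separation, since all members fell, with medians of -0.61 with and -0.76 without an E2F match. Genes with and without a match were not set against genes of their own level. Level mattered for the share that fell, 1275 of the 2636 genes over 100 CPM against 194 of the 3005 at 1 to 10 CPM. A match is a description of the letters in this window and not of a bound factor.

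Of 29 genes of cell death and p53 response 12 rose and 5 fell (3 without DMSO replicate 1, DMSO replicate 3 or C59 replicate 3). *Bmf*, which encodes a pro-apoptotic BH3-only protein, went from 92.3, 93.8 and 87.4 to 245, 232 and 246 CPM (log2 fold change 1.40, SE 0.05, edgeR adjusted p = 1.08e-07), and *Trp53inp1*, a p53 target, rose by 1.23, whereas the p53 target *Mdm2* had -0.02 and did not pass the test. *Bok*, of the BCL2 family, fell by 1.10, and by under 2-fold without DMSO replicate 2 or C59 replicate 1. Of 33 Notch, Eph and ephrin genes 13 rose and 4 fell, with *Efna1* and *Ephb1* rising by 1.17 and 1.15 and *Epha2* falling by 0.99. Of 27 axon guidance and chemoattractant genes 11 rose and 5 fell. *Slit1*, a repellent for growing axons, went from 4.8, 5.14 and 5.99 to 0.606, 1.15 and 0.881 CPM (log2 fold change -2.56, SE 0.25, edgeR adjusted p = 1.92e-05), and the neurotrophin *Bdnf* fell by 1.69, while *Sema3d* and *Cxcl12* rose by 0.99 and 0.79. *Hgf*, the ligand of the migration receptor *Met*, fell by 0.85. Of 17 insulin-like growth factor and imprinted genes 7 rose and 3 fell, with *Igf1* falling by 1.20 from 83.3, 81.8 and 87.9 to 34.4, 35.8 and 39.5 CPM and *Igfbp5* rising by 0.77.

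Markers of other cell types moved with these results, and their part in them was not tested. Endothelial markers rose in 5 of 12 and fell in 0, with sums of 438 to 476 CPM in DMSO and 539 to 596 CPM in C59 libraries. Macrophage markers rose in 7 of 12, with sums of 41.0 to 45.8 and 68.1 to 70.7 CPM. Markers of neural crest and Schwann precursors rose in 4 of 8, and in 2 of 8 without DMSO replicate 1, DMSO replicate 3 or C59 replicate 1, with sums of 50.2 to 71.0 and 110 to 154 CPM. Of 7 muscle lineage markers 4 rose and 3 fell, with sums of 129 to 179 CPM in DMSO and 208 to 271 CPM in C59 libraries. Red cell markers had the highest sums, 5463 to 8012 CPM in DMSO and 6905 to 9861 CPM in C59 libraries, which overlapped, and 1 of 10 rose, a count of 5 without DMSO replicate 3, 4 without C59 replicate 1 and 0 without any 1 of the other libraries. Limb mesenchyme markers were at 2036 to 2212 CPM in DMSO and 1435 to 1512 CPM in C59 libraries, with 6 of 8 falling and 1 rising (0 in 5 of the 6 fits without 1 library, the exception being C59 replicate 3), so that they were present in all 6 libraries. Neural tube markers rose in 2 (1 without DMSO replicate 1, DMSO replicate 3 or C59 replicate 3) and fell in 3 of 7, and somite and flank markers rose in 1 (3 without C59 replicate 3) and fell in 3 of 7. Heart markers summed to at most 2.15 CPM in any library.

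The protein-coding genes of highest fold, by rule the 10 called rises and 10 called falls whose groups were separate and whose mean CPM was 1 or more, are given next. Besides the list members *Shh*, *Notum*, *Fgf8*, *T* and *Msx1*, the falls were *Ctse*, which encodes the protease cathepsin E, *Gm14226*, *Vwde*, *Gm8281* and *Gm3636*. *Ctse* went from 6.71, 6.49 and 10.3 to 0.11, 0.298 and 0.0928 CPM (log2 fold change -5.44, SE 0.37, edgeR adjusted p = 2.01e-06). *Gm14226* went from 31.2, 40.7 and 26.5 to 2.53, 2.86 and 2.83 CPM (-3.57). *Vwde* fell by 3.32. *Gm8281* and *Gm3636*, with log2 fold changes of -4.01 and -3.13, belong to a family of near-identical copies, between which reads may be divided differently, and are uncertain.

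Among the rises, *Cntnap3*, a contactin-associated protein, went from 0, 0.168 and 0.23 to 2.92, 5.41 and 6.54 CPM (log2 fold change 5.22, SE 0.55, edgeR adjusted p = 3.08e-05). *Lrrn3*, a leucine-rich repeat membrane protein of neural tissue, went from 2.88, 4.31 and 2.19 to 26.2, 27.9 and 38.0 CPM, without overlap and 9.82-fold (log2 fold change 3.30, SE 0.21, edgeR adjusted p = 1.5e-06). *Stk32a*, a kinase gene, went from 1.06, 2.12 and 1.21 to 13.2, 15 and 19.6 CPM (3.45). *Eomes*, a T-box gene, rose by 3.88 with the widest spread of these, 1.21, 0.682 and 3.99 CPM in the C59 libraries. *Wdr72*, *Slc44a5*, *Nkx3-2*, *Pcp4* and *Rxfp3* rose by 3.40, 3.38, 3.16, 2.95 and 2.54. *Gm4737*, at 1.11, 1.34 and 1.15 CPM in DMSO and 34.5, 17.9 and 14.2 CPM in C59 libraries, is uncertain because it has a near-identical source gene. No protein-coding gene had 0 counts throughout 1 group and at least 1 CPM in each library of the other. *Duxbl1*, named after its values were seen, had 0 counts in the DMSO libraries and 0.881, 1.75 and 1.30 CPM in the C59 libraries, at least 24.0-fold higher against a floor of 3 counts over the DMSO group.

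Levels of different genes were compared only per transcript length. By mean FPKM in C59, the highest called rises were *Col2a1* (77.7 in DMSO and 169 in C59), *Sox9* (49.1 and 118) and *Sfrp2* (45.5 and 108). The highest called falls by DMSO level after *Hspd1* were *Twist1* (195 and 90.6 FPKM), *Rrm2* (137 and 68.3), *Fdps* (104 and 46.9), *Crabp1* (97.7 and 37.7), *Ahcy* (95.0 and 43.8) and *Ppa1* (91.0 and 45.5). *Ahcy* recycles the product of methylation reactions, and *Ppa1* is the cytosolic pyrophosphatase.

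A fit of all 15202 autosomal genes that passed the filter called 805 (5.3%), 3.63% higher and 1.66% lower, with 43.1% past the test alone, 20% rising and 23.1% falling. Of them 1894 were not protein-coding, and 151 of these were called (7.97%), 88 higher (4.65%) and 63 lower (3.33%). Long intergenic RNAs gave 26 higher and 11 lower of 317, antisense transcripts 19 and 7 of 308, and processed pseudogenes 13 and 26 of 538. *Gm42047*, a long intergenic RNA, had 0 counts in the DMSO libraries and 10.1, 33.0 and 30.3 CPM in the C59 libraries, at least 449-fold higher against the floor of 3 counts over the group. *AI506816*, a processed transcript, went from 5.74 ± 0.345 to 31.9 ± 1.99 CPM (SD, n = 3 each). *AC165951.1*, an antisense transcript, had 3.63, 7.27 and 3.68 CPM in DMSO and 0 counts in C59 libraries, at least 102-fold lower, and the strand of the counting is not given in the sources used here, so that its reads cannot be told from those of the gene it overlaps. The largest other falls (*Hmgb1-ps7*, *Rpl17-ps5*, *Gm46432* and *Gm18194*) and rises (*Gm7240*, *Gm13577* and *Gm14026*) were pseudogenes, whose reads can come from or be lost to their source gene. The authors' FPKM showed no change of like size for *Hmgb1-ps7* (means of 0.151 in DMSO and 0.108 in C59), *Gm46432* (0.153 and 0.0923) and *Gm13577* (0 in both). *Rpl17-ps5* (63.5 and 1.13), *Gm18194* (5.36 and 0.215), *Gm7240* (0.243 and 1.56) and *Gm14026* (0.116 and 0.773) changed there too.

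The 12 h response was compared with the neighbouring times, each measured in its own 6 libraries. From 6 to 12 h the effect of C59 differed by over 2-fold for 256 of 13565 genes (1.89%), with 184 higher (1.36%) and 72 lower (0.531%) at 12 h. By the test alone 18.1% differed, and the split was the opposite, 6.59% moving up and 11.5% down. From 12 to 18 h it differed by over 2-fold for 286 of 13694 (2.09%), 113 higher (0.825%) and 173 lower (1.26%) at 18 h. By the test alone 8.49% of genes differed between 12 and 18 h, 4.94% moving up and 3.55% down. Of the 470 genes called higher at 12 h, 169 had a larger effect at 12 h than at 6 h and 0 a smaller one, and 150 had a smaller effect at 18 h than at 12 h and 0 a larger one. Since these genes were chosen by their 12 h values, which enter both differences, these counts are a description. The genes called higher had median log2 fold changes of 0.00, 0.33, 0.38 and 0.04 at 1, 6, 18 and 24 h, each from other libraries, against 1.30 at 12 h. The genes called lower had 0.01, -0.58, -0.46 and -0.04, against -1.31. The 12 h medians lie past 1 in size by the choice of genes, so smaller medians at other times follow in part from that choice. Genes filtered out at another time are missing from its median. Those tested were 343, 379, 447 and 458 of the 470, and 182, 184, 178 and 183 of the 190 called lower.

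Members of the lists reached 12 h by different routes. *Axin2*, *Twist1*, *Grem1* and *Mycn* had effects of -1.97, -1.39, -2.94 and -1.49 at 6 h and -1.45, -1.19, -1.92 and -1.25 at 12 h, smaller in size, and the difference passed the test for all but *Mycn*. By 18 h their effects were -0.16, 0.04, 0.34 and 0.35. *Etv4*, *Dusp6* and *Cdc6* had -0.26, -0.13 and -0.18 at 6 h and fell later. *Msx1* and *Shh* remained low at 18 h, at -1.89 and -3.32. *Sox9* was at 0.72 at 6 h, whereas *Sox5*, *Sox6* and *Sulf1* were at 0.03, 0.05 and -0.00. Of the 21 cartilage matrix genes, 10 were higher at 12 h than at 6 h in the test between the times and 0 lower, against 6.59% and 11.5% of all genes.

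**Figure D4:**
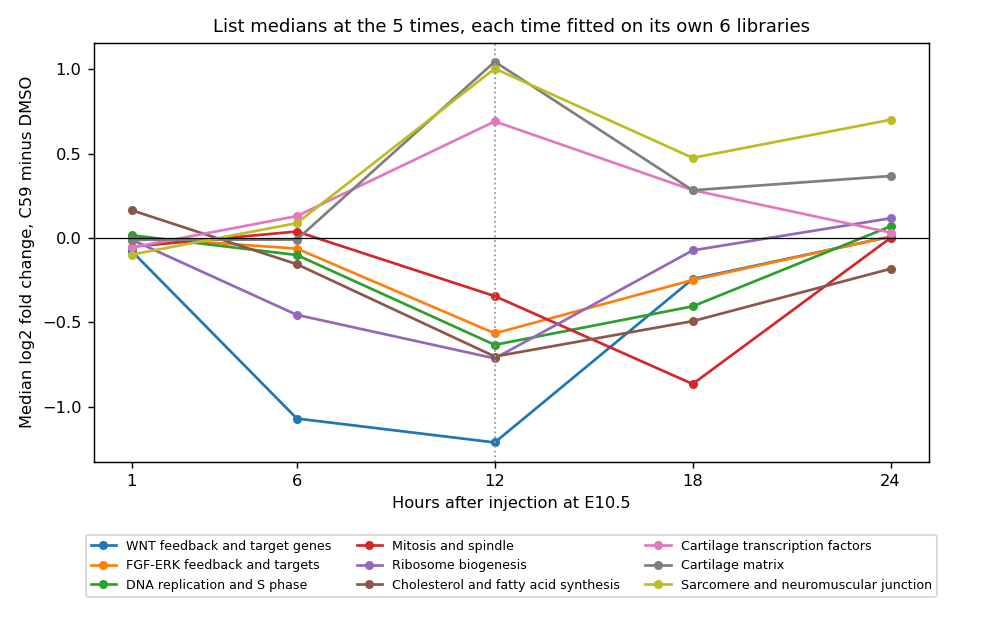
Median log2 fold change of C59 over DMSO (vertical axis) against the hours between injection and isolation (1, 6, 12, 18, 24, horizontal axis) for 9 gene lists, each point from the 6 libraries of its time and the dotted line at 12 h. The WNT targets were at -1.07 at 6 h and -1.21 at 12 h. Replication and FGF-ERK genes reached their lowest medians at 12 h, mitosis at 18 h, and cartilage and sarcomere medians were highest at 12 h. The sarcomere median was still 0.70 at 24 h, where 21 of 34 genes rose, against 16 of 33 at 12 h. In the tests between times, 1 of 33 sarcomere genes was higher at 12 h than at 6 h, and 4 of 34 were lower at 18 h than at 12 h.

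Control limb buds change greatly over the same day, and the 12 h effect was set beside that change, measured between DMSO limb buds at 24 h and 6 h, which are not part of the 12 h comparison. In these controls 1292 of 13470 genes (9.59%) were called, 8.56% higher and 1.03% lower, and by the test alone 25.6% rose and 24.7% fell, 50.2% in all. Of the 449 genes called higher at 12 h that were tested there, 339 rose with development (75.5%) and 4 fell. Of the 190 called lower, 91 fell (47.9%) and 27 rose, against 25.1% and 24.9% of all genes tested in both. Genes past the test but under 2-fold showed the same, with 50.7% of the 2463 higher ones rising and 63.3% of the 3206 lower ones falling. Across 13202 genes the Pearson correlation of the log2 changes was 0.52, as a description, since genes are not independent. *Nkx3-2*, *Nog* and *Myog* rose in control buds by 4.61, 2.57 and 3.13, and *Shh* and *Fgf8* fell there by 4.02 and 2.23. The lists differed in this respect: 34 of 34 sarcomere genes and 18 of 22 cartilage matrix genes rose in control buds, and 38 of 43 S-phase genes and 34 of 36 ribosome biogenesis genes fell. Among the lists that did not follow development were sterol synthesis, where 27 of 30 genes fell at 12 h but 7 rose and 3 fell in control buds, and the WNT targets, of which 6 rose and 8 fell of 21. Surface ectoderm and endothelial markers ran against it. Of the ectoderm markers 7 of 12 rose and 0 fell at 12 h, whereas 3 rose and 8 fell in control buds, and of the endothelial markers 5 of 12 rose and 0 fell at 12 h, whereas 1 rose and 6 fell there. *Apcdd1*, *Wif1* and *Dkk2* fell under C59 and rose in control buds, by 0.51, 0.81 and 2.02.

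**Figure D5:**
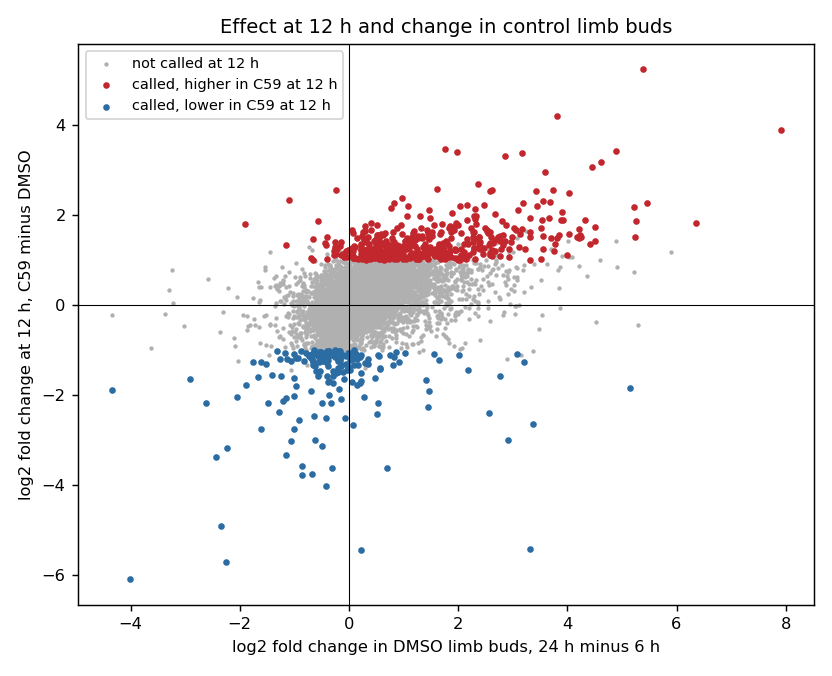
Log2 fold change of C59 over DMSO at 12 h (vertical axis) against the change in DMSO limb buds from 6 h to 24 h (horizontal axis), 1 point a gene, genes called at 12 h in red (higher) and blue (lower). Most red points lie right of 0, 339 of the 449 tested in control buds having risen there, and the blue points lie on both sides.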

How the data were processed

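Total RNA of forelimb buds was poly(A)-selected and sequenced as paired reads. The authors trimmed adapters with cutadapt (1.16), mapped reads to mm10 with STAR (2.7.0e) and deposited the counts per gene that STAR wrote with a custom annotation. The deposited FPKM values were made by the authors with Cufflinks (2.2.1), set to unstranded libraries. The strand setting of the counts is not given in the sources used here, so overlapping and antisense genes, and near-identical copies, are uncertain. The count table held 50833 autosomal genes, 20569 of them protein-coding, and 205 genes that matched no annotation entry held 0.00676% of the counts. Values of X- and Y-linked genes came from the FPKM table.

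Groups were taken from the sample labels. Counts of the 6 libraries at 12 h (18252021 to 23932093 a library) were fitted with edgeR 4.0.16 in R 4.3.3, with TMM factors, filterByExpr (minimum count 10, minimum total 15) and the quasi-likelihood test, two-sided, with Benjamini-Hochberg adjustment. Genes past an adjusted p of 0.05 rose or fell, and those also past a log2 fold change of 1 were called. CPM are counts over the TMM-scaled library size. Fold changes are fitted values with edgeR's prior count. Changes of the C59 effect between times were interaction contrasts over 12 libraries. The test was checked on simulated counts with few changed genes, both directions about equal and the same dispersion for all genes. In the data 47.5% of genes passed the test, so the check does not cover a response this wide. Alternatives used DESeq2 1.42.0, limma 3.58.1 on log2(FPKM + 1) and log2(FPKM + 0.1), other factors and filters, glmTreat, a replicate block and the omission of each library. These p-values cover the spread between libraries. The injection was given to the pregnant female. The paper states that different litters were used at each time, but the litter of each replicate is not given.

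The 32 gene lists, 11 marker lists and the comparison itself were chosen with earlier results of these data known. Genes outside the lists were named as the 10 largest called rises and 10 largest called falls with separate groups and a mean CPM of 1 or more at 12 h. Under the same conditions, the 5 largest called changes of each direction were named among other biotypes and in each interaction contrast. The 10 called genes of highest FPKM and *Porcn* were also named. Gene positions are those of the mm10 annotation, and promoter sequences are from RefSeq on GRCm38.p6. Files of other assays were not used here, and values of some list members are not reported here.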

Additional observations from a re-analysis of the deposited data

Results flagged for a closer look

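The effect of C59 at 12 h differed from that at 6 h by the interaction test, with *Shh* lower by a log2 difference of -4.62, *Ctse* by -4.15, *Evx1*, a homeobox gene of the distal limb bud, by -2.39, *Vwde* by -2.24 and *Gm14226* by -2.20. In the other direction the differences were 4.94 for *Gm4737*, 2.95 for *B3gnt3*, 2.88 for *2610528A11Rik* and 2.76 for both *Wdr72* and *Slc44a5*. *Evx1* went from 17.5, 17.3 and 22.4 CPM in the DMSO libraries to 2.97, 1.88 and 3.66 CPM in the C59 libraries at 12 h.

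From 12 h to 18 h the effect moved up by 6.22 for *Ctse*, 3.87 for *Notum*, 3.17 for *Rpl26*, 2.78 for *Shh* and 2.67 for *Gm14226*. It moved by -4.13 for *Gm4737*, -3.86 for *Eomes*, -3.71 for *Cntnap3*, -3.54 for *B3gnt3* and -3.44 for *Stk32a*. *Rpl26* encodes a ribosomal protein with many processed copies, and its reads are uncertain. Its effect at 12 h was -0.16 and did not pass the test (edgeR adjusted p = 0.0754). Each of these genes was taken as the largest of its contrast.

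*Porcn* was measured only in the FPKM table, outside the main comparison, with a mean of 3.80 FPKM in C59 and 2.72 FPKM in DMSO libraries at 12 h.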

How the results depend on the processing

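The count of 660 called genes was 630 with the DESeq2 test, 755 with upper-quartile factors, 741 without a filter and 533 with a mean of at least 1 CPM. It moved to 160 in limma on log2(FPKM + 1), where a pseudocount compresses low genes, and to 80 in glmTreat, which tests against the 2-fold threshold itself and kept 24 higher and 56 lower. The share of higher genes among those past the test was 46.4%, 61.4% with upper-quartile factors, 58.4% in limma with a pseudocount of 1 and 58.2% with 0.1. Among called genes it was 71.2%, 60.6% in limma on log2(FPKM + 1) and 30% in glmTreat.

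Leaving out 1 library gave 596 (without DMSO replicate 3) to 811 (without DMSO replicate 2) called genes, 5135 to 6151 past the test, 728 to 994 over all autosomal genes, 214 to 336 for the change from 6 to 12 h, 200 to 321 for 12 to 18 h and 1269 to 1382 for development. Without the 2 libraries with Y-linked signal, an alternative chosen after seeing the data, 777 were called, 569 higher and 208 lower. Of 3255 values of 196 named genes recomputed over the alternatives, 3181 kept their side of the threshold, 48 lost the test and 26 gained it. In 0 did the sign turn where either fit passed the test, and 178 genes kept their side in every alternative. A change of sign with neither fit past the test counted as kept, as for *Acan* (log2 fold changes from -0.41 to 2.63). Of the 127 named genes that were called, 49 lost the 2-fold call in at least 1 alternative, 9 of them (*Bok*, *Col2a1*, *Exo1*, *Foxl1*, *Gdf5*, *Hspd1*, *Jun*, *Matn1* and *Rrp12*) without 1 library. Of 1462 list counts 123 moved by over 1.5 times.

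Same-numbered libraries of both groups had correlated deviations of 0.0464, 0.111 and 0.162, and the other pairs ran from -0.116 to 0.019. Each DMSO library correlated best with its own number. The labels give only that number, and whether same-numbered libraries shared a litter or a batch was not tested. The main fits held no block. With the replicate block 672 genes were called and 6539 were past the test, 810 over all autosomal genes, 246 for 6 to 12 h, 219 for 12 to 18 h and 1281 for development.

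Genes under 1 CPM rest on few counts a library, and 112 of 803 were called higher and 27 lower. The cause of the moved counts other than those of limma and glmTreat was not tested.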

Other observations

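Families grouped by symbol, chosen after the results had been seen, add gene groups that the lists do not cover. Mitochondrial ribosomal proteins fell in 59 of 78 genes (75.6%), against 25.5% of all genes, with a median log2 fold change of -0.26. Cytosolic ribosomal proteins stood near that share, with 22 of 76 falling (28.9%) and a median of -0.06. Of all genes over 100 CPM, 1275 of 2636 fell, and the families were not set against genes of their own level. Proteasome subunits fell in 33 of 36 (median -0.33). The germ cell subunit *Psma8* had 0.67 and did not pass the test (edgeR adjusted p = 0.258). All 7 subunits of the T-complex chaperonin fell (median -0.42), as did 18 of 21 aminoacyl-tRNA synthetases, led by *Vars* (-0.95), and 38 of 51 translation initiation factors, led by *Eif5a* (-0.85). These shifts were below 2-fold, and the median of all genes was 0.02 with TMM and 0.10 with upper-quartile factors.

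In several other families the rises outnumbered the falls, to be read against the 22% of all genes that rose. Weakly expressed genes rose more often than that, 770 of the 3005 genes at 1 to 10 CPM rising and 194 falling (median 0.27). Here too no family was set against genes of its own level, so a rise may be that of weakly expressed genes in general. Cadherins rose in 10 of 18 (55.6%, median 0.47), with *Cdh9* at 0.151, 0.224 and 0.0576 CPM in DMSO and 0.936, 1.07 and 0.881 CPM in C59 libraries (2.68). Protocadherins rose in 15 of 49 (30.6%) and fell in 0, and collagens rose in 18 of 37 (48.6%). Potassium channel genes rose in 16 of 49 (32.7%), with *Kcnk13* rising by 2.48 and *Kcng1* falling by 1.87. Keratins rose in 6 of 12 (50%), among them *Krt20* by 1.81, and ADAMTS proteases in 10 of 22 (45.5%). Forkhead genes rose in 8 of 23 (34.8%) and fell in 4, with *Foxl1* at 1.52, a call lost in DESeq2, in limma and without DMSO replicate 1 (adjusted p up to 0.105), and *Foxd2* at -0.97. Histone genes, whose transcripts mostly lack poly(A) tails, rose in 4 and fell in 5 of 40. One subunit of the V-type ATPase, *Atp6v1g3*, fell by 3.0, while 4 of the 17 subunits rose (23.5%). Solute carriers stood near all genes, with 51 rising and 49 falling of 233 (21.9% and 21%).

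The 12 h comparison had been chosen as the time of the widest response, and as a description the share of genes past the test was 47.5% at 12 h, against 2.75% and 19.6% before (1 and 6 h) and 7.08% and 6.44% after it (18 and 24 h).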
